A study of Mus musculus with 11 samples.

Results

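Interferon-stimulated genes are the genes that cells switch on when an interferon binds its receptor. The set described here is a list of 39 of them, taken by gene symbol, out of 22196 genes measured in whole mouse mammary glands. All 39 were found in the tables and all 39 passed the filter on low counts, which left 12716 genes to be tested. The inguinal glands came from 11 mice, 1 library each, in 2 groups that differed in 1 allele. The 6 mice of the group Knockout had the genotype Tsc1-fl/fl; Adipoq-Cre-Tg/+, and the 5 mice of the group Wild-Type had Tsc1-fl/fl; Adipoq-Cre-+/+. Both groups thus carried the floxed Tsc1 gene, and the mice called wild-type lacked only the Cre transgene. Their food was chow. The label for age gives PND16.5, and the glands were taken 16 days after delivery. The labels do not state that the mice were lactating. Cre under the Adipoq promoter is active in fat cells, so the deletion of Tsc1 is aimed at 1 of the many cell types of the gland. The RNA came from all of them. In such bulk RNA, fewer cells of a type and less RNA per cell cannot be told apart. Nothing in the labels says more on how the mice relate, so the p-values measure the spread between these samples.

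Type I interferons act through a receptor whose kinases, JAK1 and TYK2, phosphorylate transcription factors such as STAT2. With IRF9 it is part of a complex that enters the nucleus and binds a DNA motif, the interferon-stimulated response element, in front of its target genes. Interferon gamma uses another receptor and acts on another motif, the gamma-activated site, and it also raises IRF1. The induced proteins sense foreign nucleic acid, block viral translation and replication, and feed antigen processing. Many of them are also made at a low resting level in uninfected tissue. TSC1 is a brake on the growth kinase complex mTORC1.

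The response element core was looked for in the DNA in front of the genes, since it is the feature that ties the list to interferon. RefSeq promoter windows of the build GRCm38.p6, from 250 bases before to 50 bases after a gene's start, matched 29 of the 39 genes. No window was matched for Dhx58, Ifi27l2a, Mx1, Mx2, Oas2, Parp14, Parp9, Rtp4, Usp18 and Zbp1. The core was spelled GAAA, any 2 bases, GAAA, and was searched on both strands with overlaps allowed. It was present in front of 13 of the 29 genes (44.8%), against 3.44% of all 32851 windows and 3.99% of all genes with a window. A second motif, the gamma-activated site spelled TTCNNNGAA, was present in 8 of the 29 genes (27.6%), against 8.30% of all windows and 9.55% of all genes with a window. A match of letters is a description of the window, not a proven binding site. The stretches below show the core of 6 genes with its flanks, 5′ to 3′ on the gene's strand. Capitals mark the matched core, which reads TTTC, any 2 bases, TTTC where it lies on the other strand.

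Isg15, chr4:156200855-156200916, minus strand: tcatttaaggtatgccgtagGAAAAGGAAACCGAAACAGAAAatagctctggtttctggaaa
Ifit1, chr19:34640765-34640833, plus strand: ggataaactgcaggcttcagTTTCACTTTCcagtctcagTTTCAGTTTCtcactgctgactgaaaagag
Ifit3, chr19:34583353-34583436, plus strand: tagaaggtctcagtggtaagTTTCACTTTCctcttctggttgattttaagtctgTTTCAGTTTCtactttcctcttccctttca
Oas1a, chr5:120907526-120907565, minus strand: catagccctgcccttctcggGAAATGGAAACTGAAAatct
Bst2, chr8:71537567-71537622, minus strand: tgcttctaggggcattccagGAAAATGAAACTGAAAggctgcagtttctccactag
Stat2, chr10:128270256-128270305, plus strand: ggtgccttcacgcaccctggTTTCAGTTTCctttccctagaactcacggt

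The copies differ in number and place. Isg15 had 3 overlapping matches between 78 and 66 bases before its start, Oas1a had 2 overlapping matches close to its start, at 20 and 14 bases, and Bst2 had 2 at 130 and 124 bases. Ifit1 had 2 separate copies, at 104 and 85 bases, and so had Ifit3, at 156 and 122 bases, while the window of Ifit2 held none. Stat2 had 1 copy, 222 bases before its start. Psmb9 and Tap1 are neighbours that point away from each other, and their windows shared 275 bases (chr17:34187306-34187580).

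Levels are given as CPM, a gene's estimated reads relative to all reads of its library after scaling between libraries, and for comparison between genes as TPM, which also accounts for transcript length. The targeted gene was read first. Tsc1 ranged from 8.31 to 11.9 CPM in the knockout libraries with a median of 10.1, and was 12.2, 9.77, 10.7, 11.5 and 9.55 CPM in Wild-Type 1 to 5. The groups overlapped, with a log2 fold change of -0.09 ± 0.11 (SE) and an adjusted p of 0.772 (edgeR quasi-likelihood test). In whole glands this value does not check the deletion, since Tsc1 is also read from cells without Cre. The adipocyte marker list (Adipoq, Plin1, Lep, Cidec, Fabp4 and Lipe) was present in every library, at a summed 366 to 529 CPM in the knockout and 335 to 431 CPM in the wild-type group. Milk protein genes with the luminal keratins made up 318574 to 558227 CPM, and depth was 25817975 to 37894237 estimated reads per library.

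The 39 genes were expressed at low to moderate levels. Mean TPM ran from 0.136 for Oas3 to 115 for Ifi27l2a with a median of 3.62 over the list, and gene counts ran from 10 to 2406 in any library. None of the 39 genes passed an adjusted p of 0.05 in the comparison of knockout with wild-type glands (edgeR), in which 0.055% of all genes tested were called, 7 of 12716, and 0.0472% were called as higher in the knockout group. The smallest adjusted p on the list was 0.250, for Ifi27l2a. At an unadjusted p under 0.05 there were 3 genes, Ifi27l2a, Ifih1 and Ddx58, which is 7.69% of the list against 12.4% of all genes tested. DESeq2 called 1 of the 39, again Ifi27l2a, and 1.09% of all the genes it tested. The fitted level was higher in the knockout group for 24 genes and lower for 15. The median log2 fold change was 0.10 over the list and -0.01 over all genes tested, and the values ran from -0.53 for Isg20 to 1.04 for Ifi27l2a. There was no gene among the 39 whose 6 knockout values all lay above or all below the 5 wild-type values, against 1.32% of all genes tested.

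**Figure D1:**
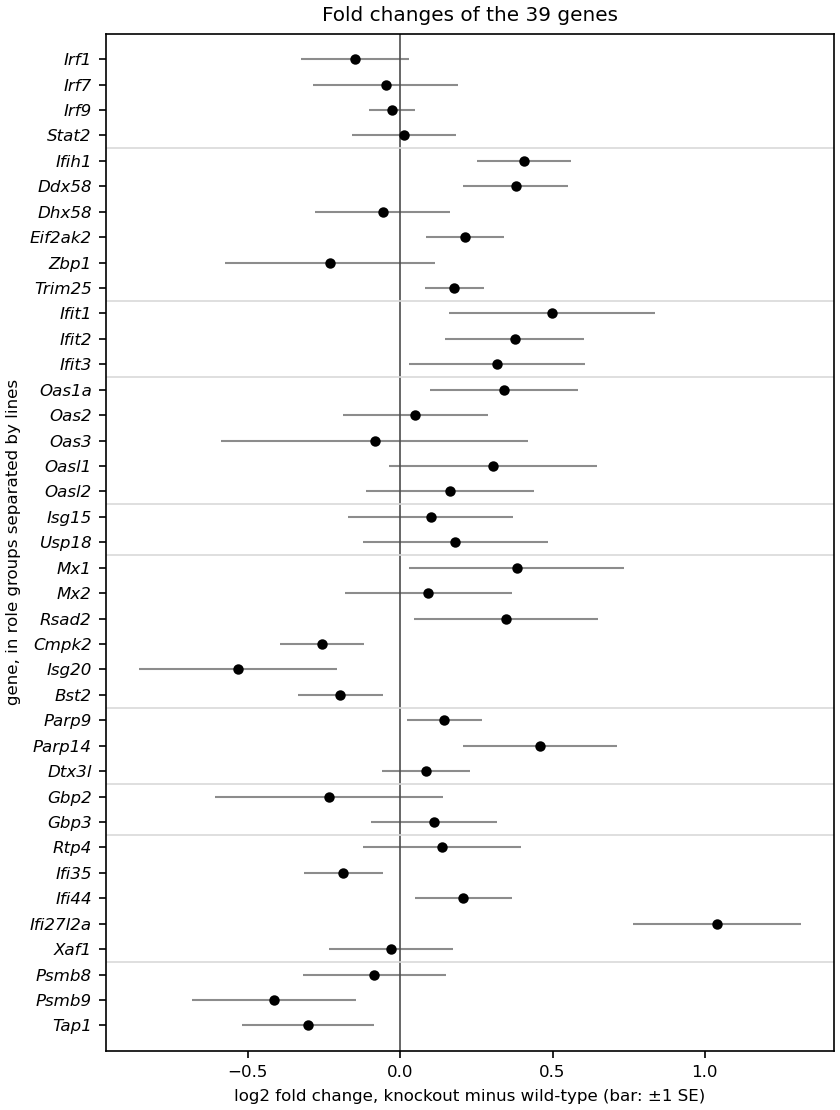
Log2 fold change of each of the 39 genes, knockout minus wild-type, on the horizontal axis, with genes in role groups on the vertical axis; points are edgeR estimates and bars are 1 SE on each side. Points lie on both sides of 0, from -0.53 for Isg20 to 1.04 for Ifi27l2a.

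Libraries of the same genotype spread widely over the list as a whole. The median within-group SD of log2 CPM was 0.44 over the 39 genes and 0.23 over all genes tested. Irf9, Trim25, Eif2ak2 and Parp9 were below that second value. A single library stood out in each group. Knockout 1 was the highest of the 6 knockout libraries for 32 of the 39 genes (82.1%), against 16.7% of all genes tested, and its median ratio to the median of the other knockout libraries was 1.52, with a range from 0.804 to 3.44. Wild-Type 3 was the lowest of the 5 wild-type libraries for 32 of the 39 genes (82.1%), against 16.9% of all genes tested, at a median ratio of 0.540 with a range from 0.226 to 1.19. Over all 11 libraries Knockout 1 was the highest for 24 genes (61.5%) and Wild-Type 3 the lowest for 30 (76.9%), against 8.65% and 7.97% of all genes tested. With Knockout 1 and Wild-Type 3 left out, the median within-group SD was 0.264 over the 39 genes and 0.235 over all genes tested. These 2 libraries were picked out by the values of the list, so the counts are a description with no test. With the 7 genes that each held over 1% of all counts left out, both counts were again 32.

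**Figure D2:**
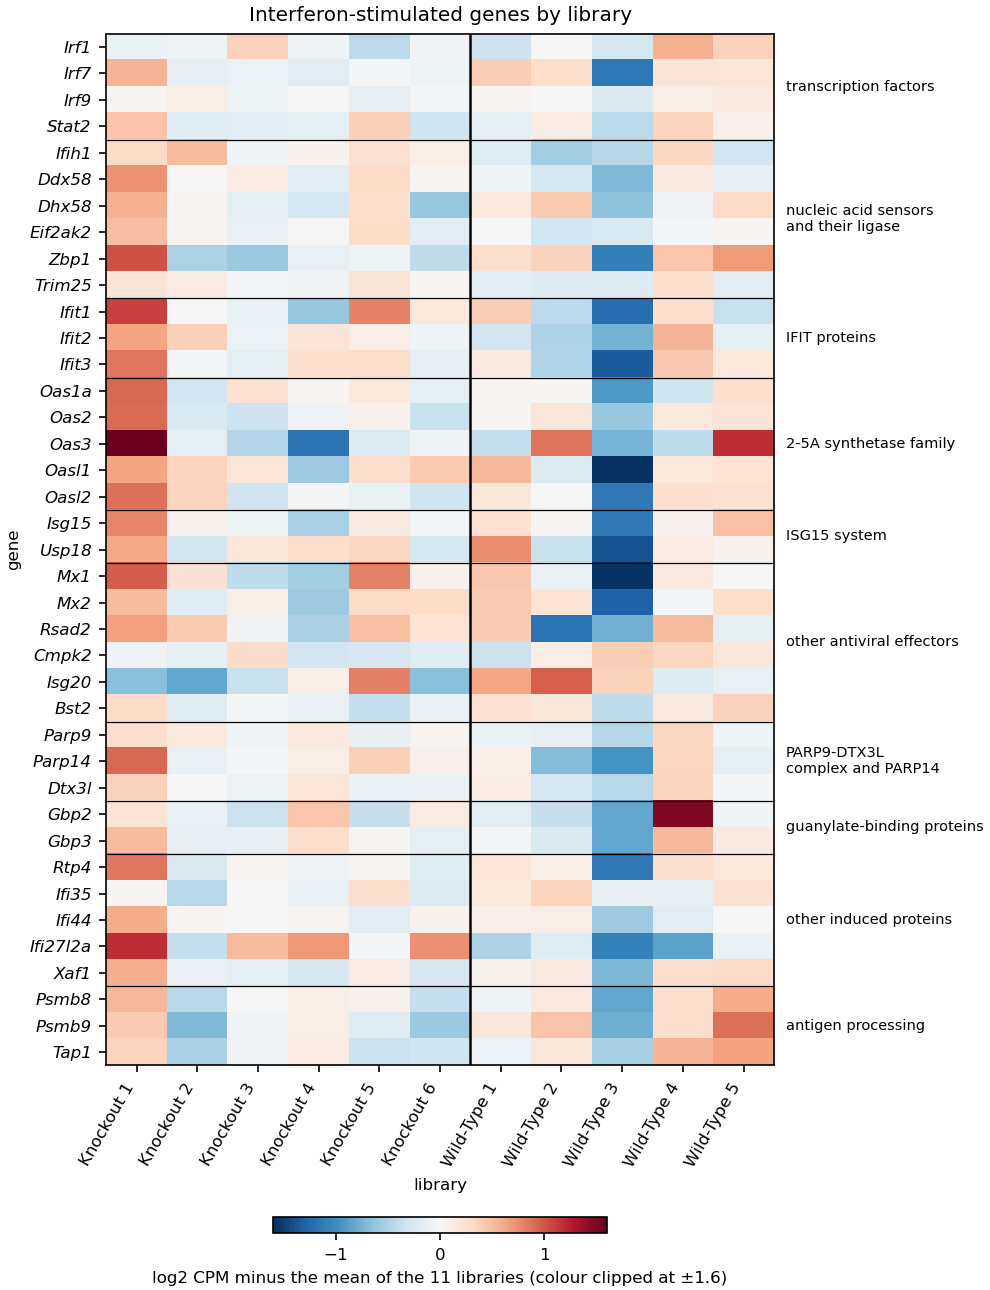
Log2 CPM of the 39 genes (vertical axis, in role groups) in the 11 libraries (horizontal axis), centred on each gene's mean over the libraries; red is above and blue below that mean. The column of Knockout 1 is mostly red and that of Wild-Type 3 mostly blue, and the other columns are mixed.

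**Figure D3:**
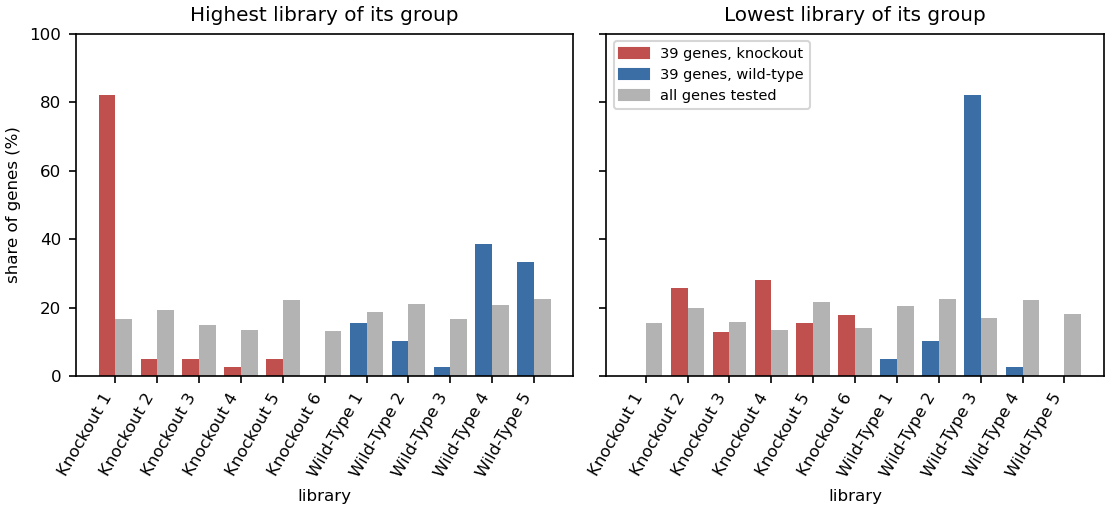
Share of genes, in percent, for which each library is the highest (left) or the lowest (right) of its own group, for the 39 genes (coloured) and for all genes tested (grey). Knockout 1 reaches 82.1% on the left and Wild-Type 3 reaches 82.1% on the right.

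The mean centred log2 CPM over the 39 genes put the same libraries at the ends. It was 0.55 in Knockout 1 and between -0.10 and 0.10 in the other 5 knockout libraries. In Wild-Type 1 to 5 it was 0.08, -0.03, -0.73, 0.20 and 0.17. The difference of the group means was 0.12, with SDs of 0.25 in the knockout and 0.39 in the wild-type group, so it was smaller than either SD. On log2(TPM + 0.1), which has no scaling between libraries, the difference was 0.34. This small difference depended on single libraries. Without Knockout 1 it was 0.02 and 19 of the 39 genes were higher in the knockout group, and without Wild-Type 3 it turned to -0.05 with 15 genes higher. It rose to 0.19 without Wild-Type 4, with 27 genes higher, and to 0.17 without Wild-Type 5, with 29 genes higher. Without both libraries, an alternative chosen after the data were seen, it was -0.14, with 11 genes higher, a median log2 fold change of -0.17 and again no gene called.

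Among the transcription factors, 1 of 4 was higher in the knockout group, Stat2 at a log2 fold change of 0.01 ± 0.17. Irf1, which is raised by interferon gamma and other cytokines, ranged from 11.1 to 19.2 CPM in the knockout libraries with a median of 14.2. It was 11.8, 15.0, 12.2, 22.1 and 19.2 CPM in Wild-Type 1 to 5. The groups overlapped over most of their range and the fold change of -0.15 ± 0.18 did not pass (adjusted p = 0.766, edgeR). For Irf1, as for Ifih1, Cmpk2 and Isg20, Knockout 1 was not the highest library of its group and Wild-Type 3 was not the lowest. Irf7, the factor that amplifies type I interferon and is itself strongly induced by it, did follow them, at 28.1 CPM in Knockout 1 against 17.0 to 19.0 CPM in the other knockout libraries, and at 8.73 CPM in Wild-Type 3 against 22.1 to 25.3 CPM in the other wild-type libraries. Irf9, the DNA-binding subunit of the complex with STAT2, varied little, from 25.9 to 33.5 CPM over all 11 libraries.

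Of the 6 nucleic acid sensors and their ligase, 4 had a higher fitted level in the knockout group and 2 a lower one. Ifih1 encodes MDA5, which detects long double-stranded RNA. It ranged from 23.7 to 34.8 CPM in the knockout libraries with a median of 27.6, and was 21.4, 16.6, 17.7, 30.8 and 19.8 CPM in Wild-Type 1 to 5. All wild-type libraries but Wild-Type 4 lay below the whole knockout range. The log2 fold change was 0.41 ± 0.15 with an unadjusted p of 0.0208, and it did not pass (adjusted p = 0.341, edgeR). Ddx58, which encodes the sensor RIG-I, had 9.83 to 18.2 CPM in the knockout group with a median of 11.7. In Wild-Type 1 to 5 it was 10.5, 9.23, 6.75, 12.2 and 10.1 CPM, overlapping the knockout range, with a fold change of 0.38 ± 0.17 (adjusted p = 0.398, edgeR). Trim25, the ubiquitin ligase that helps to activate RIG-I, ranged from 17.5 to 20.9 CPM in the knockout libraries with a median of 19.1. It was 16.1, 15.6, 15.7, 21.6 and 15.9 CPM in the wild-type libraries, where Wild-Type 4 stood above every other library of either group. Its fold change was 0.18 ± 0.10 (adjusted p = 0.484, edgeR), and 0.28 without Wild-Type 4. Zbp1, a sensor that can trigger cell death, had 7.11 CPM in Knockout 1 and 2.31 to 3.34 CPM in the other knockout libraries, and it was lowest of all in Wild-Type 3 at 1.63 CPM.

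The IFIT proteins bind viral RNA and block its translation, and all 3 of their genes had higher fitted levels in the knockout group without passing the test. Ifit2 ranged from 1.98 to 3.29 CPM in the knockout libraries with a median of 2.36, and was 1.72, 1.5, 1.26, 3.1 and 1.90 CPM in Wild-Type 1 to 5. Wild-Type 4 lay within the knockout range and the other wild-type libraries below it. The fold change was 0.38 ± 0.23 (adjusted p = 0.521, edgeR), and 0.63 without Wild-Type 4. Ifit3 ranged from 9.08 to 18.4 CPM with a median of 11.02 in the knockout group and was 11.2, 7.27, 4.02, 13.7 and 11.4 CPM in the wild-type group. Knockout 1 was the highest and Wild-Type 3 the lowest library, and between them the groups were mixed. Its fold change of 0.32 ± 0.29 (adjusted p = 0.687, edgeR) became 0.15 without Knockout 1, 0.12 without Wild-Type 3, -0.04 without these 2 libraries and 0.49 without Wild-Type 4. Ifit3 shares 61.8% of its 31-base words with Ifit3b, so its reads could not be assigned with certainty.

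The active enzymes of the 2-5A synthetase family make the messenger that activates the antiviral RNase L. Of the 5 genes of the family on the list, 4 had a higher fitted level in the knockout group. Oas1a ranged from 6.10 to 14.3 CPM with a median of 8.07 in the knockout libraries, and was 7.77, 7.64, 3.99, 6.04 and 9.02 CPM in Wild-Type 1 to 5. Only Knockout 1 lay above the highest wild-type library. The fold change was 0.34 ± 0.24 (adjusted p = 0.590, edgeR), and it was 0.15 without Knockout 1, 0.19 without Wild-Type 3 and 0.0022 without both. Oas1a shares 68.8% of its words with Oas1g. Oas3 and Oasl1 were among the 3 genes with the largest spread within groups. Oas3 ranged from 0.301 to 2.02 CPM in the knockout libraries with a median of 0.601, and was 0.525, 1.25, 0.408, 0.516 and 1.54 CPM in the wild-type libraries. High values thus stood in Knockout 1, Wild-Type 5 and Wild-Type 2, and the fold change was -0.08 ± 0.50 (adjusted p = 0.964, edgeR). It became -0.66 without Knockout 1 and -1.16 with transcript length offsets. Oasl1 ranged from 1.95 to 4.51 CPM with a median of 3.62 in the knockout group and was 4.20, 2.51, 0.754, 3.28 and 3.4 CPM in the wild-type group. Its wild-type spread came mainly from Wild-Type 3, and its fold change was 0.31 ± 0.34 (adjusted p = 0.752, edgeR), or 0.059 without that library and 0.49 without Wild-Type 1.

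ISG15 is a ubiquitin-like protein that is attached to other proteins, and USP18 removes it and also damps the type I receptor. Isg15 ranged from 4.42 to 10.8 CPM in the knockout libraries with a median of 6.40, and was 7.39, 6.39, 2.86, 6.56 and 8.74 CPM in Wild-Type 1 to 5. Apart from Knockout 1 and Wild-Type 3, the knockout libraries had 4.42 to 6.94 CPM and the wild-type libraries 6.39 to 8.74 CPM. The fold change was 0.10 ± 0.27 (adjusted p = 0.911, edgeR) and turned to -0.08 without Knockout 1, to -0.09 without Wild-Type 3 and to -0.26 without both. Usp18 ranged from 3.44 to 6.44 CPM with a median of 4.94 in the knockout group and was 7.07, 3.30, 1.6, 4.62 and 4.42 CPM in the wild-type group. Here Wild-Type 1 was the highest of all libraries and Wild-Type 3 the lowest. The fold change of 0.18 ± 0.30 (adjusted p = 0.842, edgeR) became -0.03 without Wild-Type 3, 0.45 without Wild-Type 1 and 0.41 with transcript length offsets.

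**Figure D4:**
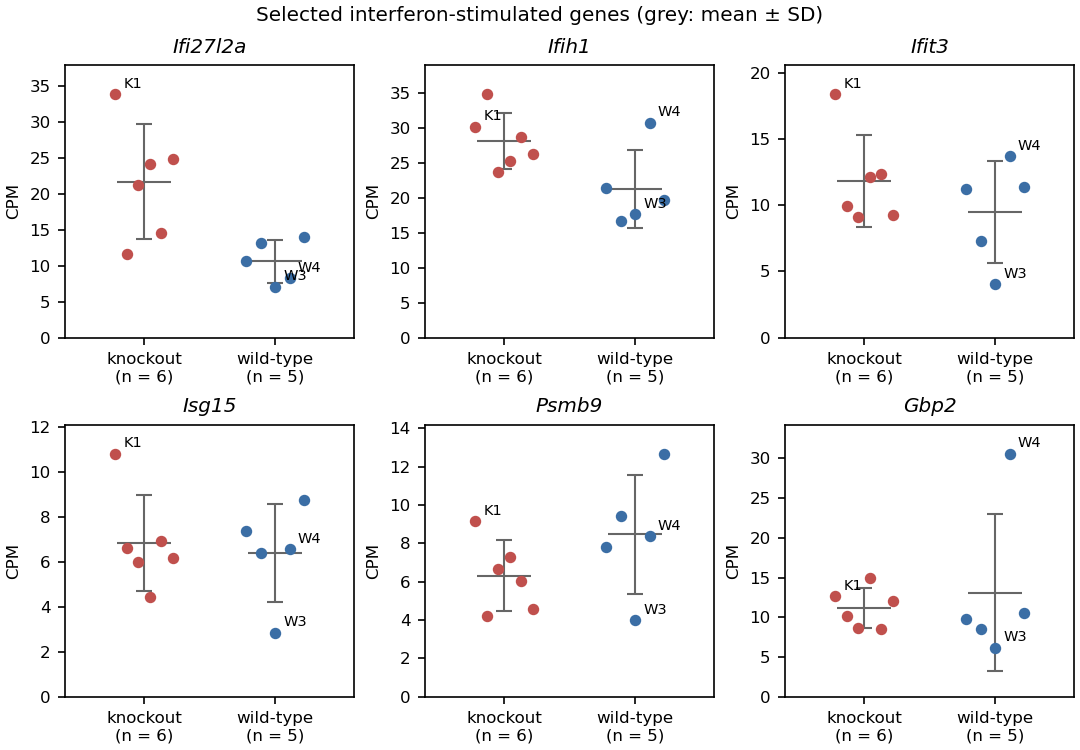
CPM of 6 genes in each library (points; red knockout, n = 6, blue wild-type, n = 5) with the group mean and SD in grey; K1, W3 and W4 mark Knockout 1, Wild-Type 3 and Wild-Type 4. Groups overlap in all 6 panels, and Gbp2 shows Wild-Type 4 at 30.6 CPM, far above the rest.

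Other antiviral effectors were divided, with 3 of 6 higher and 3 lower in the knockout group. Bst2 encodes tetherin, which holds budding virus at the cell surface. It ranged from 33.0 to 53.4 CPM in the knockout libraries with a median of 39.8, and was 50.5, 49.0, 32.4, 47.8 and 55.5 CPM in Wild-Type 1 to 5. Knockout 1 lay within the wild-type range and Wild-Type 3 just below the knockout range, and the fold change was -0.20 ± 0.14 (adjusted p = 0.593, edgeR). It was -0.30 without Wild-Type 3 and -0.39 without both of these libraries. Cmpk2, a mitochondrial nucleotide kinase next to Rsad2 in the genome, ranged from 11.7 to 17.7 CPM with a median of 12.9 in the knockout group. In Wild-Type 1 to 5 it was 11.3, 15.5, 18.9, 18.3 and 16.4 CPM, and so, unlike the rest of the list, it was highest in Wild-Type 3. The fold change was -0.26 ± 0.14 (adjusted p = 0.478, edgeR). Its neighbour Rsad2, which encodes the antiviral enzyme viperin, had 2.98 to 6.73 CPM in the knockout and 1.88 to 6.04 CPM in the wild-type group, with Knockout 1 highest. Mx1, a GTPase that traps viral nucleoproteins, ranged from 0.842 to 2.40 CPM with a median of 1.36 in the knockout libraries. It was 1.65, 1.13, 0.408, 1.37 and 1.23 CPM in the wild-type libraries, the third of the genes with the largest spread, and its fold change was 0.38 ± 0.35 (adjusted p = 0.689, edgeR). It was 0.20 without Knockout 1, 0.16 without Wild-Type 3 and 0.20 with transcript length offsets. Isg20, an exonuclease, was singled out after its values were seen, since it had the lowest fold change of the list, -0.53 ± 0.32 (adjusted p = 0.529, edgeR). It was 11.3 to 35.1 CPM in the knockout group, with Knockout 5 highest, and 17.1 to 38.8 CPM in the wild-type group.

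PARP9 and DTX3L form a complex that adds ADP-ribose and ubiquitin to proteins, and PARP14 is a related enzyme. Their 3 genes had higher fitted levels in the knockout group and did not pass the test. Parp14 ranged from 16.3 to 33.3 CPM in the knockout libraries with a median of 18.7, and was 19.0, 10.9, 9.05, 22.4 and 15.9 CPM in Wild-Type 1 to 5. Knockout 1 was the highest library, and Wild-Type 3 and Wild-Type 2 were the lowest. The fold change was 0.46 ± 0.25 (adjusted p = 0.488, edgeR), and 0.29 without Knockout 1. Parp9 ranged from 29.4 to 39.2 CPM with a median of 34.6 and was 30.0, 29.5, 23.5, 40.7 and 30.7 CPM in the wild-type libraries. Wild-Type 4 was above and Wild-Type 3 below every knockout library, and the fold change was 0.14 ± 0.12 (adjusted p = 0.660, edgeR). It was 0.061 without Wild-Type 3, 0.27 without Wild-Type 4 and 0.28 with transcript length offsets.

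The guanylate-binding proteins are GTPases that attack the membranes of intracellular pathogens and are induced above all by interferon gamma; 1 of the 2 on the list was higher and 1 lower in the knockout group. Gbp2 ranged from 8.48 to 15.0 CPM in the knockout libraries with a median of 11.1, and was 9.74, 8.52, 6.19, 30.6 and 10.5 CPM in Wild-Type 1 to 5. Wild-Type 4 held over 2 times the level of any other library. The fold change was -0.23 ± 0.37 (adjusted p = 0.833, edgeR) and 0.36 without Wild-Type 4. Gbp3 ranged from 9.28 to 14.5 CPM with a median of 9.83 in the knockout group and was 9.98, 8.73, 5.75, 14.6 and 11.3 CPM in the wild-type group. Wild-Type 4 and Knockout 1 shared the top of its range, and its fold change was 0.11 ± 0.21 (adjusted p = 0.862, edgeR). It became 0.75 with transcript length offsets and -0.04 without Wild-Type 3.

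The remaining induced proteins held the gene with the largest difference, and 3 of the 5 had a higher fitted level in the knockout group. Ifi27l2a (ENSMUSG00000079017, chr12:103442167-103443680 in GRCm38) encodes a small mitochondrial protein that is strongly induced by interferon. It ranged from 11.6 to 33.8 CPM in the knockout libraries with a median of 22.7, and was 10.6, 13.1, 7.07, 8.23 and 13.9 CPM in Wild-Type 1 to 5. Knockout 2, at 11.6 CPM, lay below Wild-Type 2 and Wild-Type 5, and the other 5 knockout libraries lay above all wild-type libraries. The log2 fold change was 1.04 ± 0.27 with an unadjusted p of 0.00285, and it did not pass with edgeR (adjusted p = 0.250) but did with DESeq2 (adjusted p = 0.0127). Over all alternatives of scaling, filtering, blocking and left-out libraries the fold change stayed between 0.76 and 1.17. It shares 6.00% of its words with Ifi27l2b. Rtp4, Ifi44 and Xaf1 were each highest of all in Knockout 1 and lowest in Wild-Type 3, as in 12.2 and 3.05 CPM for Rtp4, a receptor-transporting protein. Their fold changes were 0.14 ± 0.26 for Rtp4, 0.21 ± 0.16 for Ifi44 and -0.03 ± 0.20 for Xaf1. Ifi35, which was 16.7 to 27.5 CPM in the knockout and 20.8 to 29.3 CPM in the wild-type group, varied less, and its highest knockout library was Knockout 5.

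The antigen-processing genes were the role group with every fitted level lower in the knockout group, 3 of 3, and none passed. Wild-Type 5 was the highest wild-type library for all 3, at a median ratio of 1.51, for 12 of the 16 other antigen presentation genes and for the 3 chemokines tested. It also had the highest summed levels of B cell markers, 51.6 CPM, and of T cell markers, 21.8 CPM, and their part in the result was not tested. Psmb9, a subunit of the immunoproteasome that cuts proteins into peptides for MHC class I, ranged from 4.23 to 9.17 CPM in the knockout libraries with a median of 6.33. It was 7.81, 9.44, 3.99, 8.38 and 12.7 CPM in Wild-Type 1 to 5. Wild-Type 3 was the lowest and Wild-Type 5 the highest of all libraries, and the fold change was -0.42 ± 0.27 (adjusted p = 0.551, edgeR), or -0.22 without Wild-Type 5 and -0.60 without Wild-Type 3. Psmb8, the immunoproteasome subunit encoded nearby, ranged from 13.9 to 27.4 CPM with a median of 19.5 and was 18.1, 21.1, 10.7, 23.2 and 28.8 CPM in the wild-type libraries. Wild-Type 5 was its highest and Wild-Type 3 its lowest library, and its fold change was -0.09 ± 0.23 (adjusted p = 0.913, edgeR). Tap1, a subunit of the transporter that carries those peptides into the endoplasmic reticulum, had 14.1 to 25.9 CPM in the knockout and 14.0 to 31.6 CPM in the wild-type group, with a fold change of -0.30 ± 0.22.

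Of 94 other genes of the pathway, 81 were tested and none passed with edgeR, while 7 had an unadjusted p under 0.05 (8.64%, against 12.4% of all genes tested) and DESeq2 called 1 (against 1.09% of all genes it tested). Fitted levels were higher in the knockout group for 34 and lower for 47 of them. None of the 9 interferon genes passed the filter. The highest count of any of them in any library was 9, of Ifne, and Ifnb1 had a single read in each of 2 libraries. Receptors and kinases were present in every library, and 6 of the 9 had a higher and 3 a lower fitted level in the knockout group. Their log2 fold changes ran from -0.15 for Tyk2 to 0.24 for Ifnlr1. Ifnar1, a chain of the type I receptor, was at 4.95 to 7.19 CPM in the knockout and 5.35 to 6.91 CPM in the wild-type group. Tyk2, the receptor kinase with the smallest p of its list, was 15.7 to 20.9 CPM in the knockout and 18.9 to 23.2 CPM in the wild-type group, with a fold change of -0.15 ± 0.08 (adjusted p = 0.491, edgeR), or -0.097 without Knockout 3. In the induction pathway, Myd88, the adaptor of most Toll-like receptors, ranged from 11.8 to 14.2 CPM with a median of 13.4 in the knockout libraries. It was 11.4, 10.9, 9.17, 13.3 and 9.13 CPM in Wild-Type 1 to 5, with a fold change of 0.30 ± 0.10 (adjusted p = 0.313, edgeR). All wild-type libraries but Wild-Type 4 lay below the knockout range.

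Negative regulators were lower in the knockout group for 4 of 5 genes. Ptpn6, a phosphatase of blood cells that restrains JAK signalling, ranged from 8.06 to 12.9 CPM with a median of 9.997 in the knockout libraries. It was 11.3, 25.7, 12.9, 13.6 and 29.3 CPM in Wild-Type 1 to 5, so that Wild-Type 2 and Wild-Type 5 stood well above all other libraries. Its fold change was -0.90 ± 0.25, which did not pass with edgeR (adjusted p = 0.269) and was the 1 pathway gene that DESeq2 called (adjusted p = 0.0345). B cell markers moved with it: the sum of Cd79a, Cd79b, Ms4a1 and Cd22 was 38.7 CPM in Wild-Type 2 and 51.6 CPM in Wild-Type 5 against 0.624 to 11.4 CPM in all other libraries, and their part in the result was not tested. Of 36 other interferon-induced genes tested, 16 were higher and 20 lower. Among them, Ifi47 was listed at 0 in Wild-Type 2 and was 3.68 to 9.72 CPM in the other libraries, so its count among the higher genes is uncertain. Nmi, a partner of STAT proteins, had the smallest p among them, with 5.91 to 8.62 CPM in the knockout group and a median of 7.15. It was 9.39, 10.4, 8.73, 8.99 and 9.13 CPM in the wild-type libraries, all of them above every knockout library, and its fold change was -0.36 ± 0.11 (adjusted p = 0.274, edgeR). Such separation held for 1 of the 81 pathway genes tested, Nmi itself, against 1.32% of all genes tested. Of 16 other antigen presentation genes, 5 were higher and 11 lower, and Cd74, the invariant chain of MHC class II, was 110 to 175 CPM in the knockout and 156 to 242 CPM in the wild-type group, with a fold change of -0.35 ± 0.15 (adjusted p = 0.369, edgeR). Of the chemokines, Cxcl9 was at 0.330 to 1.11 CPM in the knockout and 0.560 to 2.14 CPM in the wild-type group, with a fold change of -0.71 (adjusted p = 0.455, edgeR) that was -0.45 without Wild-Type 5, and Cxcl10 had at most 10 counts in any library.

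The places of the 2 end libraries were also counted in the wider interferon program, with no test of a difference between lists. Knockout 1 was the highest knockout library for 25 of the 36 other interferon-induced genes (69.4%), for 8 of the 16 antigen presentation genes and for 3 of the 9 receptor and kinase genes. Wild-Type 3 was the lowest wild-type library for 27, 15 and 3 of them, which is 93.8% of the antigen presentation genes. In the remaining lists Knockout 1 was highest for 6 of 12 induction pathway genes, 2 of 5 negative regulators and 0 of 3 chemokines. Wild-Type 3 was lowest for 3, 2 and 1 of these. Over all genes tested the shares were 16.7% for Knockout 1 and 16.9% for Wild-Type 3.

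A second library pattern was seen in the guanylate-binding and immunity-related GTPases, a set of 9 (Gbp2, Gbp3, Gbp5, Gbp7, Igtp, Irgm1, Irgm2, Iigp1 and Tgtp1) that was put together after their values were seen and leaves out Ifi47, an immunity-related GTPase listed at 0 in Wild-Type 2. Wild-Type 4 was the highest wild-type library for 8 of the 9 and also the highest of all 11 for 8, at a median ratio of 2.10 to the median of the other wild-type libraries, with a range from 1.21 to 3.35. Knockout 4 was the highest knockout library for 5 of the 9. Igtp ranged from 10.4 to 40.5 CPM in the knockout libraries with a median of 21.0, and was 24.9, 19.7, 7.07, 62.8 and 28.4 CPM in Wild-Type 1 to 5. The highest knockout value was that of Knockout 4. Iigp1 was 74.4 CPM in Wild-Type 4, 37.0 CPM in Knockout 4 and between 16.6 and 28.0 CPM in the other 9 libraries. The mean centred log2 CPM of the 9 genes was 1.01 in Wild-Type 4, 0.44 in Knockout 4 and -0.84 in Wild-Type 3, where 8 of the 9 were the lowest of their group. Wild-Type 4 was also the highest wild-type library for 2 of the 3 IFIT genes, at a median ratio of 1.58, for all 3 genes of the PARP9-DTX3L and PARP14 group, at 1.41, and for 15 of the 39 genes in all (38.5%, against 20.8% of all genes tested). Read counts of these GTPases are uncertain where family members share sequence. Tgtp1 shares 83.2% of its words with Tgtp2, and Igtp shares 14.8% with Irgm2.

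Markers of other cells differed between the same libraries, and their part in the spread of the 39 genes was not tested. The B cell sum was 9.90 CPM in Knockout 1 and 0.624 to 2.05 CPM in the other knockout libraries, and in Wild-Type 1 to 5 it was 1.72, 38.7, 2.54, 11.4 and 51.6 CPM. Ms4a1 was at 0 in at least 1 library. The T cell sum (Cd3d, Cd3e, Cd3g, Cd4, Cd8a and Trac) was 6.42 CPM in Knockout 1, 1.09 to 3.07 CPM in the other knockout libraries and 0.876 to 21.8 CPM in the wild-type group. The B and T cell sums were 1.72 and 0.876 CPM in Wild-Type 1, and 2.54 and 1.66 CPM in Wild-Type 3. The macrophage sum (Adgre1, Csf1r, Cd68, C1qa, C1qb and Mrc1) was highest in Knockout 1 at 99.2 CPM. Wild-Type 5 had 98.1 CPM and Knockout 2 had 96.9 CPM. It was 74.6 CPM in Wild-Type 3, 74.0 CPM in Wild-Type 4, 64.9 CPM in Knockout 5 and 60.9 CPM in Knockout 3. The neutrophil sum (S100a8, S100a9, Retnlg and Csf3r) was 7.82 CPM in Knockout 1 and 2.19 to 4.68 CPM in all other libraries. The plasma cell sum (Jchain, Mzb1, Derl3 and Igha) was 2918 CPM in Knockout 1 against 367 to 2516 CPM in the other knockout libraries, of which Knockout 5 was the lowest. It was 1429 CPM in Wild-Type 3, as in Knockout 3, and 1633 to 4574 CPM in the other wild-type libraries. The NK cell sum (Ncr1, Klrb1c, Gzma and Klrd1) was 2.14 CPM in Wild-Type 3 and 2.83 to 5.05 CPM in all other libraries. The endothelial sum (Pecam1, Cdh5, Kdr, Tie1 and Emcn) went the opposite way, lowest in Knockout 1 at 67.9 CPM and highest in Wild-Type 3 at 106 CPM. The list for plasmacytoid dendritic cells, the strongest producers of type I interferon, summed to 9.95 to 11.8 CPM in the knockout and 9.99 to 13.1 CPM in the wild-type group. Its members Ccr9 and Klk1 were at 0 in at least 1 library, and its defining gene Siglech was at 0.273 to 0.919 CPM. The milk and secretory epithelium sum was lowest in Knockout 1 at 318574 CPM and highest in Wild-Type 3 at 558227 CPM, and these were also the libraries with the highest and the lowest scaling factor, 1.22 and 0.842.

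**Figure D5:**
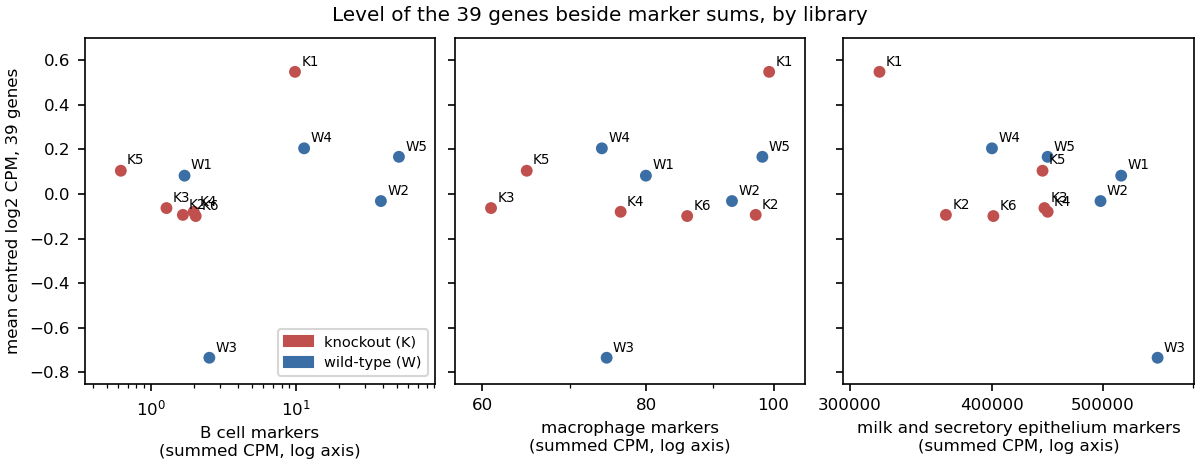
Mean centred log2 CPM of the 39 genes (vertical axis) against the summed CPM of B cell, macrophage, and milk and secretory epithelium markers (horizontal log axes), 1 point per library. K1 and W3 lie at the top and bottom of every panel, and at the low and high end of the epithelium axis.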

How the data were processed

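RNA of 11 glands was measured in strand-specific libraries. Per the file headers, the deposited tables give for each transcript an estimated count of reads, a TPM and an effective length in bases. The submitters' processing notes name Salmon 1.3.0, DESeq2 1.28.1 and GRCm38.p6; the transcript index and options are not given in the sources used here. The authors' table of normalized gene values was not used here.

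Estimated counts were summed per gene with the GENCODE M21 annotation, which matched 57452 of 58204 transcripts; the rest held at most 0.265% of a library's reads. Sums were rounded to whole numbers. Genes were filtered with filterByExpr, scaled by TMM and tested over the whole table with edgeR 4.0.16 in R 4.3.3 (quasi-likelihood F test, robust, genotype only, Benjamini-Hochberg adjustment, threshold 0.05). The common biological coefficient of variation was 24.1%. CPM use TMM-scaled library sizes, and log2 CPM a prior count of 2. The deposited TPM set levels between genes, and the deposited effective lengths served as offsets in 1 alternative. The fitting script was tested on simulated data.

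Within each of 10 role groups the text names the gene with the smallest p and that with the highest TPM. It also names the 3 genes with the largest within-group SD, and the gene with the smallest p in each pathway list. Further members are given by ranges, and the 9 GTPases, Isg20 and the other pathway genes named were picked after their values were seen. 2 genes of the fixed pathway and marker lists are not reported here and were left out of their lists' counts and sums. The members and lists were chosen with earlier results of these data known. Genes sharing over 5% of their 31-base words with another gene were counted as uncertain, which held for 7 members (Oas1a, Ifit3, Ifit1, Mx2, Mx1, Ifi27l2a and Gbp3); no member overlapped coding exons of a gene on the other strand. Alternatives were RLE scaling, DESeq2 1.42.0, no filter, length offsets, abundant genes left out, a replicate block, a prior count of 0.5, TPM and each library left out.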

Additional observations from a re-analysis of the deposited data

Results flagged for a closer look

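In groups of 5 or 6 libraries, a library was singled out when its gap to the nearest other was large against the range of its group (Dixon's test). This was so in 10 of 68 sets of values, and 6 of the 10 lay in Knockout 1. A chance count of about 3.4 would hold for sets chosen without regard to their spread. Oas3, Oasl1 and Mx1 were named for their large spread, so the count of 10 cannot be set against it. The sets share their libraries and are not independent.

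In Knockout 1, Ifit3 was 18.4 CPM against 9.08 to 12.4 CPM in the other knockout libraries. Oas1a was 14.3 CPM there against 6.10 to 8.92 CPM, and Oas3 was 2.02 CPM against 0.301 to 0.654 CPM. The mean centred log2 CPM of the 39 genes was 0.55 against -0.10 to 0.10. In the same library the T cell marker sum was 6.42 CPM against 1.09 to 3.07 CPM and the B cell marker sum 9.90 CPM against 0.624 to 2.05 CPM. The part of these cells in the other values was not tested.

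In Wild-Type 3 the mean over the 39 genes was -0.73 against -0.03 to 0.20 in the other wild-type libraries. In Wild-Type 4, Gbp2 was 30.6 CPM against 6.19 to 10.5 CPM, and Trim25 was 21.6 CPM against 15.6 to 16.1 CPM. In Knockout 3, Cmpk2 was 17.7 CPM against 11.7 to 13.9 CPM.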

How the results depend on the processing

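Of 468 fold changes of the 26 genes named by rule under 18 alternatives, 447 kept their direction and their side of the threshold; 19, in 10 genes, turned, and 2 passed the threshold, Ifi27l2a and Ptpn6 with DESeq2. The count of all genes called was the value that moved most: 7 in the test reported, 146 with DESeq2, 0 with the replicate block, and between 0 and 28 with single libraries left out, with 0 without Knockout 3 or Knockout 6, 2 without Knockout 1 or Wild-Type 3, 13 without Wild-Type 1 or Wild-Type 5, 14 without Wild-Type 4 and 28 without Knockout 2. No member was called in any edgeR alternative. DESeq2 called 1 member and 1 other pathway gene. The labels do not say that replicate numbers pair mice. Deviations of libraries with the same number correlated at -0.02, -0.10, 0.19, -0.22 and -0.21. Libraries with different numbers were not compared in this way, so a pairing was not tested. With the replicate block Psmb8 was at 0.016. Length offsets put Irf1 at 0.057, and moved Oas3 to -1.16, Gbp3 to 0.75, Usp18 to 0.41, Parp9 to 0.28, Mx1 to 0.20, Gbp2 to -0.12, Psmb9 to -0.25 and Tyk2 to -0.071. With Knockout 1 and Wild-Type 3 both left out, a choice made after seeing the data and on the members' own values, 0 genes were called, the members' median was -0.17, their within-group SD 0.26 and 5 had groups that did not overlap (2.60% of all genes tested); Ifit3 was at -0.041, Usp18 at -0.13, Isg15 at -0.26, Gbp3 at -0.13, Oasl1 at -0.021 and Mx1 at -0.020. With single libraries left out, members whose groups did not overlap numbered 0 to 3, with 3 without Wild-Type 4 and 1 without Knockout 2, where 3.56% and 2.47% of all genes tested did not overlap. Over the same left-out libraries, fold changes that changed sign ran from -0.24 to 0.00019 for Irf1, from -0.029 to 0.45 for Usp18, from -0.089 to 0.24 for Isg15, from -0.41 to 0.36 for Gbp2, from -0.038 to 0.29 for Gbp3, from -0.25 to 0.070 for Psmb8 and from -0.66 to 0.25 for Oas3. On log2(TPM + 0.1), with no scaling between libraries, the difference of the mean over the 39 genes was 0.34 in place of 0.12. The causes were not tested. The number of members highest in Knockout 1 or lowest in Wild-Type 3 was between 31 and 36 with RLE scaling, length offsets, a prior count of 0.5, abundant genes left out and each other library left out; it was not counted under the other alternatives. Low counts limit Oas3 and Mx1, at under 3 CPM in every library.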
